A study of Homo sapiens with 12 samples.

Results

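Airway contractile agonists act through G protein-coupled receptors of the cell surface. Most of these receptors couple to Gq, which activates phospholipase C and releases stored calcium, and several also act through G12/13 and RhoA, and both routes raise the phosphorylation of myosin light chains. In the lung they are best known from airway smooth muscle, where histamine, bradykinin, endothelin-1, lysophosphatidic acid and proteases trigger or modulate tone, while bronchodilator receptors oppose them through Gs and cAMP. Fibroblasts and myofibroblasts carry many of the same receptors, and there they are known for effects on contraction, migration and matrix.

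The genes described here were 9 of the 25702 in the count table, taken by their symbols: the ligand gene EDN1 and the receptor genes EDNRA, BDKRB1, BDKRB2, F2R, F2RL1, LPAR1, HRH1 and OXTR. All of the receptors are contractile ones, and the bronchodilator side is given below from a list of relaxant receptors. RNA came from WI-38 cells, a line of normal human lung fibroblasts, with 3 flasks in each of 4 conditions. Cells at passages 2 to 3 were collected 1 day after a change of medium (D1) or after addition of 2 ng/mL TGF-β (D1+ TGF-β), and cells at passages 5 to 6 after 20 days without (D20) or with TGF-β (D20+ TGF-β), the medium being renewed every 2 days. The D20 flasks of each treatment had been seeded from 1 flask, so p-values measured the spread between sister flasks, and day, passage and reseeding cannot be told apart. At D20, TGF-β and the founding flask cannot be told apart either. This holds for every difference with TGF-β at D20 and for the differences of the TGF-β responses given below.

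Library totals ranged from 8674488 to 18286197 counts. Levels are given as cpm (counts scaled to a common library total, with TMM factors) for replicates 1, 2 and 3 in that order. Differences are log2 fold changes ± standard error from edgeR's quasi-likelihood test over the 9490 genes that reached 10 cpm in at least 6 libraries, and an adjusted p under 0.01 counted as a call. Of the 9 genes, 8 passed this filter. EDN1 did not, and its tests are from the same edgeR fit to all 20434 genes with a count. A gene could pass the filter through the conditions in which it was high, which bears on the counts over lists below. Replicates 2 of D1 and 3 of D20+ TGF-β stood apart, with a chi-square per gene against their mates of 36.1 and 33.8, and of 26.5 and 19.0, while all other pairs lay between 1.78 and 12.9. The 10 fibroblast marker genes all passed the filter. Of 8 endothelial markers 1 passed the filter, TEK, and the list summed to 45.8 to 79.5 cpm at D1, 34.9 to 41.3 at D1+ TGF-β, 219 to 247 at D20 and 77.0 to 149.8 at D20+ TGF-β. TEK rose by 2.05 in D20 vs D1 (edgeR, adjusted p = 8.83e-06) and by 1.72 between the TGF-β groups (adjusted p = 6.71e-05), and fell by 0.97 with TGF-β at D20 (adjusted p = 0.00327), all on the log2 scale. Of 10 epithelial markers 3 passed, KRT8, KRT18 and KRT19, and the list summed to between 40.0 and 69.9 cpm in any library, while of 9 leukocyte markers 1 passed, CD68, with a sum between 37.9 and 61.8 cpm. CDH5 (endothelium), KRT5 and FOXJ1 (epithelium), and CD3E and MS4A1 (lymphocytes) had 0 counts in each condition. Of 10 smooth muscle markers, ACTA2 among them, 7 passed the filter. All 10 summed to 1256 to 1949 cpm at D1, 1895 to 1990.4 at D20, 3232 to 3479 at D1+ TGF-β and 1685 to 1999 at D20+ TGF-β. Of the 7 tested, 4 rose and 0 fell in D1+ TGF-β vs D1 (13.4% of all genes called). In D20+ TGF-β vs D20 0 rose and 4 fell (27.5%). In D20 vs D1 4 rose and 1 fell (36.4%), and between the TGF-β groups 0 rose and 6 fell (34.8%). The part of any of these markers in the results below was not tested.

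ACTA2, the gene of α-smooth muscle actin, served as a check of the treatment. Its log2 fold change in D1+ TGF-β vs D1 was 2.07 ± 0.17 (edgeR, adjusted p = 2.28e-06), and IGFBP3 and LTBP2 rose there by 4.04 (adjusted p = 6.32e-08) and 1.80 (adjusted p = 1.35e-07). With TGF-β at D20 ACTA2 was not called, with 0.13 (adjusted p = 0.554), while IGFBP3, LTBP2 and FN1 were called, with 2.46, 2.18 and 1.95. IGFBP3, LTBP2 and FN1 were named for being called with the largest changes, so their calls alone are no check. The list they came from held 9 check genes, ACTA2 among them, and all were tested. At D1 7 rose, 0 fell and 2 were not called (13.4% of all genes called). At D20 5 rose, 0 fell and 4 were not called (27.5%). The median log2 fold changes were 1.34 and 0.87.

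The sequences just before the start site are shown for the genes with the largest TGF-β responses among the 9, EDN1 and F2RL1 upwards and BDKRB2 downwards at D1. They are RefSeq promoter windows (GRCh38.p14, plus strand), which held 8 of the 9 genes in 19 windows, and F2R was not among them. Capitals mark matches on either strand to 4 motifs. The motif CAGAC, bound by SMAD proteins, was found in 45.3% of 35116 windows of 300 bases. The AP-1 motif TGANTCA was found in 7.71% of them, the TEAD motif GGAATG in 14% and the TATA box motif, searched as TATAAA, in 11.5%. The matches shown did not overlap each other. EDN1 is shown at chr6:12290111-12290360, F2RL1 at chr5:76818780-76819029 and BDKRB2 at chr14:96204589-96204838.
EDN1: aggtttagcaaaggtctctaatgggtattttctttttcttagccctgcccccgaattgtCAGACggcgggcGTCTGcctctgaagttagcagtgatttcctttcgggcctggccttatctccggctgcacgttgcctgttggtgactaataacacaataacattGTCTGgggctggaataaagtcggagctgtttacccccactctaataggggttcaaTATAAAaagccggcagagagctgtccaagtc
F2RL1: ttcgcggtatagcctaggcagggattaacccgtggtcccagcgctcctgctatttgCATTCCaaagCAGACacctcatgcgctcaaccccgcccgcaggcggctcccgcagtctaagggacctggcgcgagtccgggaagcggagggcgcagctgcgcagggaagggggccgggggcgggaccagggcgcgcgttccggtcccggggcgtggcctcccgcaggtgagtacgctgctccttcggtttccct
BDKRB2: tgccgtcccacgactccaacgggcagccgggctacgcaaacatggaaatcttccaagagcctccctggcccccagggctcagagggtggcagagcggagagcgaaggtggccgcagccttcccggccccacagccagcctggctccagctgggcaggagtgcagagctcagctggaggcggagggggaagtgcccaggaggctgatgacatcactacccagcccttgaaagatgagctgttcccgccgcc

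The EDN1 stretch held CAGAC from bases −191, −179 and −86, the latter pair on the minus strand, and TATAAA from base −31. A further CAGAC began at base −1 and ran across the start site, which made 4 in the window, a number that 0.57% of all windows reached. This was the third of 3 EDN1 windows, and the first and second held 2 and 1. The window of EDNRA, which was not called with TGF-β on either day, held 3. F2RL1 had GGAATG on the minus strand from −194 and CAGAC from −184, and BDKRB2 had 0 matches of the 4 motifs. These are matches of letters and no binding was measured.

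EDN1 (Entrez 1906, chr6:12290594-12297427 in GRCh37) encodes the precursor of endothelin-1, a peptide that constricts vessels and airways. It was low in 3 of the 4 conditions and stood out in D1+ TGF-β. The 3 flasks had 5.07, 3.33 and 7.54 cpm at D1 (60, 51 and 90 counts) and 33.4, 32.2 and 25.4 at D1+ TGF-β (287, 576 and 218 counts). At D20 they had 5.43, 5.36 and 5.95 cpm and at D20+ TGF-β 3.87, 3.53 and 4.04. Each D1+ TGF-β flask lay above all 9 others, and the other 3 conditions overlapped except that D20 and D20+ TGF-β did not. EDN1 rose 5.74-fold in D1+ TGF-β vs D1 (2.52 ± 0.18 log2, edgeR without the filter, adjusted p = 8.03e-11), in a fit where 8.3% of all genes were called. With TGF-β at D20 the log2 difference was −0.53 and not called (adjusted p = 0.0720, 17.1% of all genes called). Between the TGF-β groups, EDN1 fell by 3.03 on the log2 scale from D1 to D20 (adjusted p = 9.48e-12, 21.2% of all genes called), and in D20 vs D1 its difference was 0.025 (adjusted p = 0.990, 22% of all genes called). The difference of the 2 TGF-β responses was itself called, at −3.05 ± 0.28 (adjusted p = 2.23e-08), where 6.43% of all genes were. As the RNA is bulk, fewer cells that carry a transcript and less RNA per cell cannot be told apart, here and below.

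**Figure D1:**
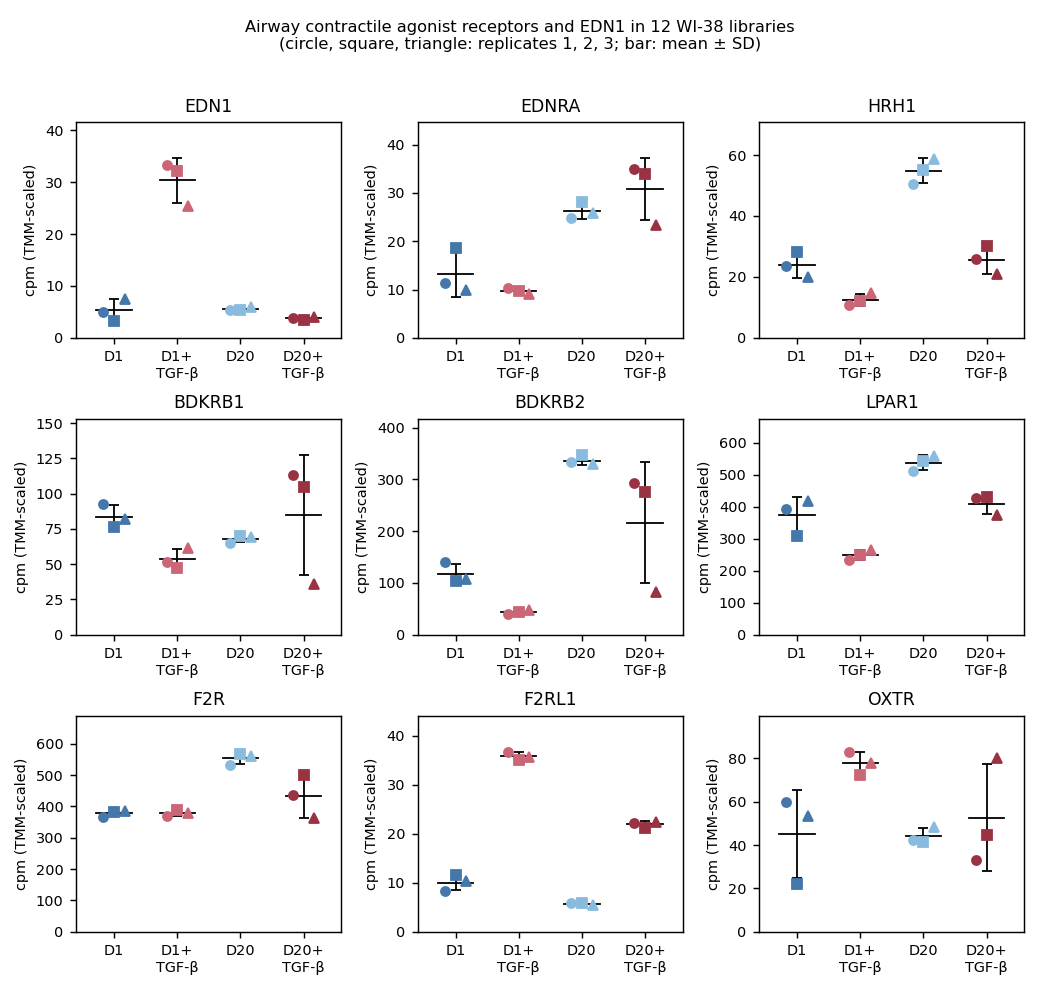
Levels of EDN1 and the 8 receptor genes in cpm (y axes, linear from 0) in the 12 libraries by condition. Circles, squares and triangles are replicates 1, 2 and 3 and the bars are the mean ± SD of 3 flasks. EDN1 stands up only in D1+ TGF-β, F2RL1 stands up with TGF-β on both days, and in D20+ TGF-β the triangle lies below its mates for BDKRB1 and BDKRB2 and above them for OXTR.

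EDNRA (Entrez 1909, chr4:148402069-148466106) encodes the endothelin A receptor, the Gq-coupled receptor through which endothelin-1 contracts smooth muscle. It was called between the days and not with TGF-β. The flasks had 11.3, 18.7 and 9.80 cpm at D1 and 10.4, 9.60 and 9.10 at D1+ TGF-β. They had 24.8, 28.2 and 25.8 cpm at D20 and 34.9, 34.0 and 23.4 at D20+ TGF-β. Each of the D20 and D20+ TGF-β flasks lay above each of the D1 and D1+ TGF-β flasks, and on either day the flasks with and without TGF-β overlapped. EDNRA rose in D20 vs D1 (0.97 ± 0.20 log2, edgeR, adjusted p = 0.00124) and between the TGF-β groups of the 2 days (1.68 ± 0.21, adjusted p = 3.58e-05). The differences with TGF-β were −0.47 at D1 (adjusted p = 0.139) and 0.23 at D20 (adjusted p = 0.350). Without replicate 2 of D1, the highest flask of that group, the D1 difference was −0.12. The ligand and its receptor had their highest means in different conditions, EDN1 in D1+ TGF-β and EDNRA in D20+ TGF-β, and their log2 levels had a Pearson r of −0.76 over the 12 libraries, which share 4 condition means.

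The bradykinin receptor genes lie in tandem on chromosome 14, BDKRB2 (Entrez 624, chr14:96671016-96710503) before BDKRB1 (Entrez 623, chr14:96722547-96735304), with 12043 bp between them. BDKRB2 encodes the B2 receptor for intact bradykinin, and BDKRB1 the B1 receptor, which binds kinins that have lost their last arginine and is known as an inducible gene. BDKRB2 had the largest called difference of the 8 receptors. It had 140.2, 104 and 108 cpm at D1 and 39.2, 44.7 and 47.8 at D1+ TGF-β. It had 333, 347 and 329.8 cpm at D20 and 293, 275 and 82.5 at D20+ TGF-β. D20 lay above the other 3 conditions and D1+ TGF-β below them in every flask, while D1 and D20+ TGF-β overlapped through replicate 3 of the latter. BDKRB2 fell by 1.42 ± 0.33 on the log2 scale in D1+ TGF-β vs D1 (edgeR, adjusted p = 0.00695), but 9 of 23 alternatives ended this call (adjusted p up to 0.0338). It rose by 1.52 ± 0.32 in D20 vs D1 (adjusted p = 0.00134) and by 2.31 ± 0.34 between the TGF-β groups of the 2 days (adjusted p = 9.99e-05). In D20+ TGF-β vs D20 it differed by −0.63 (adjusted p = 0.120), and by −0.24 without replicate 3 of D20+ TGF-β (adjusted p = 0.104).

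BDKRB1 had 92.4, 76.1 and 81.9 cpm at D1 and 51.3, 47.5 and 61.4 with TGF-β, and at D20 it had 65.3, 70.2 and 69.0 and with TGF-β 114, 105 and 35.7. The last of these flasks was the lowest of all 12, and its mates were the highest of all 12. None of the 5 tests of BDKRB1 was called: the log2 difference with TGF-β was −0.65 at D1 (edgeR, adjusted p = 0.118) and 0.32 at D20 (adjusted p = 0.389), the one between days was −0.29 without TGF-β (adjusted p = 0.417) and 0.68 with it (adjusted p = 0.0629), and the responses differed by 0.97 (adjusted p = 0.104). With that flask left out, all of these but the difference between days without TGF-β were called. The D1 difference was then −0.65 (adjusted p = 2.20e-04), the D20 difference 0.68 (adjusted p = 1.79e-04), the difference between days with TGF-β 1.05 (adjusted p = 3.34e-06) and the difference of responses 1.33 (adjusted p = 3.00e-05), and that of BDKRB2 was 1.17 (adjusted p = 1.52e-04). The D1 groups do not hold that flask but share the estimate of spread with it. With only the libraries of the comparison the D1 difference of BDKRB1 was −0.63 (edgeR, adjusted p = 0.00370).

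Per kilobase of exon, the B1 receptor gene was the higher of the pair at D1, and the B2 receptor gene at D20. In cpm the B2 receptor gene was the higher at D1 as well, with means of 118 and 83.5. The order at D1 thus rests on the exon lengths used, 6845 bp for BDKRB2 and 2372 bp for BDKRB1. Whether these match the annotation behind the counts is not known. Both genes also overlap a further gene on the same strand, whose reads are not known to be separated. The ratio of BDKRB2 to BDKRB1 in cpm per kb was 0.486 ± 0.0354 at D1 and 1.71 ± 0.0560 at D20, and with TGF-β it was 0.287 ± 0.0340 and 0.868 ± 0.0585 (SD, n = 3). The flasks of the 4 conditions did not overlap in this ratio. Replicate 3 of D20+ TGF-β had a ratio of 0.802 where its mates had 0.894 and 0.910, although both of its genes were far below theirs. With 3 flasks against 3 an exact permutation test cannot give a p below 0.1, so the ratios were not tested.

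The protease-activated receptor genes are neighbours on chromosome 5, F2R (Entrez 2149, chr5:76011951-76031595) and F2RL1 (Entrez 2150, chr5:76114758-76131140), with 83162 bp between them. F2R encodes PAR1, the receptor cleaved by thrombin, and F2RL1 encodes PAR2, which trypsin and mast cell tryptase cleave. F2RL1 was the only receptor of the 8 called upwards with TGF-β, and it was so on both days. Its flasks had 8.28, 11.5 and 10.3 cpm at D1 and 36.6, 35.1 and 35.7 at D1+ TGF-β. They had 5.81, 5.81 and 5.47 cpm at D20 and 22.1, 21.2 and 22.4 at D20+ TGF-β. The 4 conditions did not overlap. F2RL1 passed the filter through its TGF-β flasks, since no D20 flask and not every D1 flask reached 10 cpm. F2RL1 rose 3.54-fold in D1+ TGF-β vs D1 (1.82 ± 0.10 log2, edgeR, adjusted p = 8.85e-08) and 3.86-fold in D20+ TGF-β vs D20 (1.95 ± 0.11, adjusted p = 3.97e-08). With time it fell by 0.82 without TGF-β (adjusted p = 8.23e-05) and by 0.70 with it (adjusted p = 7.11e-05), all on the log2 scale. The 2 responses differed by 0.12 ± 0.15 (adjusted p = 0.609). In the edgeR fit without the filter the rises with TGF-β were 1.81 at D1 (adjusted p = 1.31e-11) and 1.96 at D20 (adjusted p = 4.59e-12).

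F2R was among the most abundant of the 9 genes and moved least. It had 367, 382 and 385 cpm at D1 and 370.2, 389 and 379 with TGF-β, and at D20 it had 532, 568 and 562 and with TGF-β 436, 502 and 363. D20 lay above every other flask, and the other conditions overlapped. F2R rose in D20 vs D1 (0.56 ± 0.10 log2, edgeR, adjusted p = 3.11e-04). It fell in D20+ TGF-β vs D20 (by 0.35 ± 0.10, adjusted p = 0.00914), a call that 14 of 23 alternatives ended (adjusted p up to 0.0362). In D1+ TGF-β vs D1 the log2 difference was 0.0050 (adjusted p = 0.975). In cpm per kb, F2RL1 was 0.0359 ± 0.00512 of F2R at D1 and 0.0139 ± 8.16e-04 at D20, and with TGF-β it was 0.128 ± 0.00605 and 0.0699 ± 0.0133 (SD, n = 3), without overlap of flasks between conditions. PAR1 transcripts were thus the more abundant of the pair in each library.

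**Figure D2:**
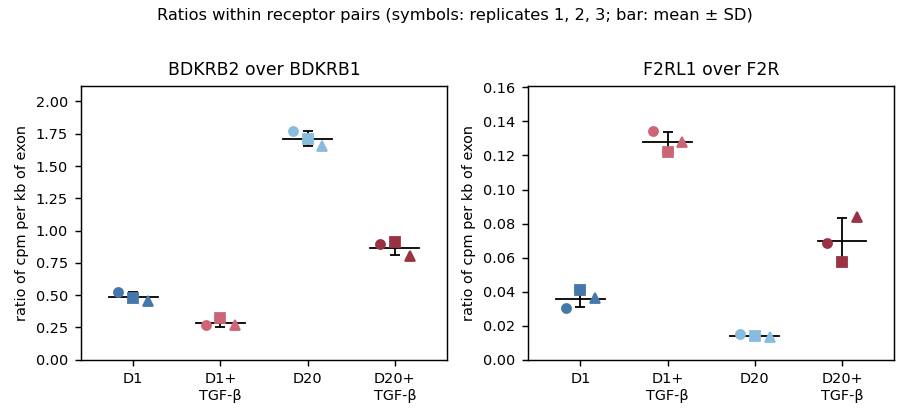
Ratios of cpm per kb of exon (y axes, linear from 0) of BDKRB2 to BDKRB1 and of F2RL1 to F2R in the 12 libraries. Symbols are replicates 1, 2 and 3 and bars are the mean ± SD of 3 flasks. The BDKRB2 ratio is lowest in D1+ TGF-β and highest in D20, and the F2RL1 ratio is the reverse of this.

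LPAR1 (Entrez 1902, chr9:113635543-113800750, minus strand) encodes a receptor for lysophosphatidic acid, a lipid known to attract fibroblasts in injured lung. It was abundant in each condition, lower with TGF-β and higher with time. The flasks had 393, 308 and 418 cpm at D1 and 234, 249 and 264 with TGF-β, and at D20 they had 512, 541 and 558 and with TGF-β 426, 429 and 374. Only D1 and D20+ TGF-β overlapped. LPAR1 fell by 0.58 ± 0.10 on the log2 scale in D1+ TGF-β vs D1 (edgeR, adjusted p = 0.00120) and by 0.39 ± 0.10 in D20+ TGF-β vs D20 (adjusted p = 0.00800). The second call was lost in 11 of 23 alternatives (adjusted p up to 0.0347). The rises with time were 0.53 without TGF-β (adjusted p = 8.12e-04) and 0.72 with it (adjusted p = 9.48e-05).

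HRH1 (Entrez 3269, chr3:11178779-11305243) encodes the H1 receptor, the target of the common antihistamines. It had 23.6, 28.3 and 19.9 cpm at D1 and 10.7, 12.2 and 14.6 with TGF-β, and at D20 it had 50.6, 55.0 and 58.9 and with TGF-β 25.8, 30.2 and 21.0. As for LPAR1, only D1 and D20+ TGF-β overlapped. With TGF-β HRH1 fell on both days, by 0.95 ± 0.16 on the log2 scale at D1 (edgeR, adjusted p = 8.05e-04) and by 1.10 ± 0.14 at D20 (adjusted p = 4.74e-05), and the difference of the responses was −0.15 ± 0.21 (adjusted p = 0.664). HRH1 rose with time by 1.19 without TGF-β (adjusted p = 1.50e-05) and by 1.05 with it (adjusted p = 1.47e-04). These 4 calls held in each of 23 alternatives, as did those of F2RL1.

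OXTR (Entrez 5021, chr3:8792067-8811314, minus strand) encodes the oxytocin receptor, a Gq-coupled receptor best known from the uterus. It overlaps CAV3 on the opposite strand, and since the use of strand in counting is not given in the sources used here, reads of the 2 are not known to be separated. Its flasks had 60.0, 21.9 and 53.4 cpm at D1 and 82.9, 72.6 and 77.7 with TGF-β, and at D20 they had 42.4, 41.3 and 48.4 and with TGF-β 33.1, 44.8 and 80.2. The low flask of D1 and the high flask of D20+ TGF-β were the libraries that stood apart. OXTR was called in none of the comparisons (with TGF-β 0.79 log2 at D1, edgeR, adjusted p = 0.0877, and 0.24 at D20, adjusted p = 0.579), although all 3 D1+ TGF-β flasks lay above all 3 of D1. Without replicate 3 of D20+ TGF-β the D20 difference was −0.19, and without replicate 2 of D1 the D1 difference was 0.46.

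Over the 8 genes tested, 4 were called in D1+ TGF-β vs D1, F2RL1 upwards and BDKRB2, HRH1 and LPAR1 downwards, where 13.4% of all tested genes were called, 6.89% upwards and 6.5% downwards. Another 4 were called in D20+ TGF-β vs D20, F2RL1 upwards and HRH1, LPAR1 and F2R downwards, against 27.5% of all genes, 12.8% upwards and 14.7% downwards. With time 6 were called in D20 vs D1, 5 upwards and F2RL1 downwards (36.4% of all genes, 18.9% upwards and 17.6% downwards). In the other time comparison, D20+ TGF-β vs D1+ TGF-β, 5 were called, 4 upwards and F2RL1 downwards (34.8% of all genes, 17.2% upwards and 17.7% downwards). The median log2 fold change of the 8 genes was −0.53, −0.061, 0.54 and 0.70 in these comparisons in that order, and over all genes it was −0.017, 0.0090, 0.013 and 0.010. Flasks of the 2 groups did not overlap for 6, 5, 7 and 5 of the 8 genes, against 36.4, 58.4, 55.6 and 63.2% of all genes. The comparisons share groups of flasks, so that these counts are not independent of each other. F2RL1 was among the 8 through its TGF-β flasks. The difference of the TGF-β responses was called for 0 of the 8 (edgeR, 10.4% of all genes), and for 0 by DESeq2 and by limma-voom on the libraries. The unadjusted p by edgeR was under 0.05 for BDKRB1, EDNRA and F2R (0.0307, 0.0302 and 0.0192).

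**Figure D3:**
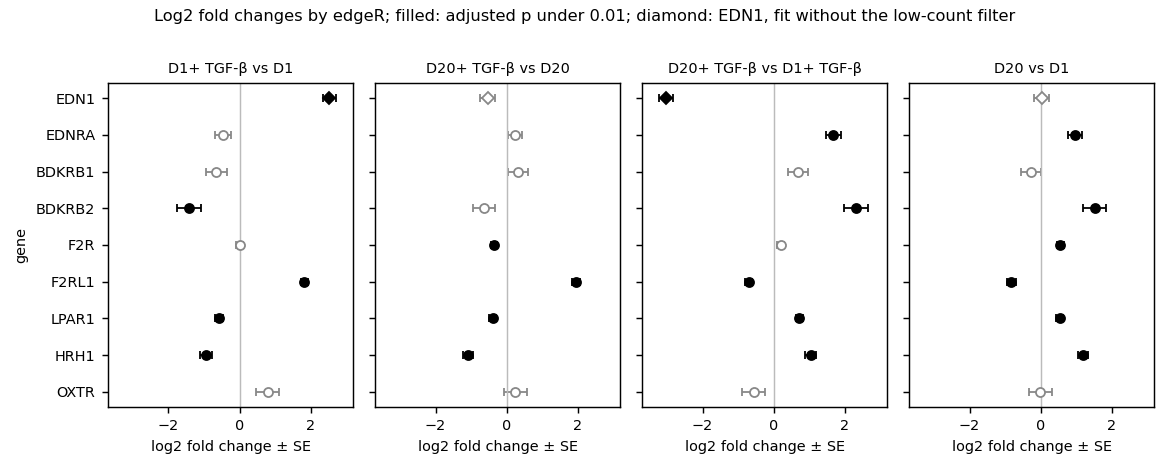
Log2 fold changes (x axes) of the 9 genes in 4 comparisons, with standard errors as bars. Filled symbols have an adjusted p under 0.01 by edgeR, and diamonds are EDN1 from the fit without the filter. F2RL1 lies right of 0 in both TGF-β comparisons and left of 0 in both time comparisons, and HRH1 and LPAR1 the other way round.

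Cpm per kb allows genes to be compared as far as the exon lengths used apply to the counts. In this unit the D1 order was F2R at 95.1, LPAR1 at 90.1, BDKRB1 at 35.2, BDKRB2 at 17.2, OXTR at 9.93, HRH1 at 4.29, F2RL1 at 3.42, EDNRA at 3.13 and EDN1 at 2.61. In D1+ TGF-β, EDN1 had 14.9 and F2RL1 12.2, above HRH1 at 2.24, EDNRA at 2.28 and BDKRB2 at 6.42. In D20 the lowest were F2RL1 at 1.94 and EDN1 at 2.74, and BDKRB2 reached 49.2. Over the 12 libraries the log2 levels of BDKRB2, LPAR1 and HRH1 ran closest together, with a Pearson r of 0.94 for BDKRB2 and LPAR1 and of 0.92 for HRH1 with each of them. HRH1 and F2RL1 had an r of −0.87. These values are descriptions over libraries that share condition means.

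Among all tested genes, those with the highest Pearson r over the 12 libraries were taken for the 3 receptors with the largest called change. For BDKRB2 they were TRPA1, an irritant-gated cation channel (0.99), LHFPL2 (0.98) and CYGB, the gene of cytoglobin (0.98), and TRPA1 had means of 661 and 1275 cpm at D1 and D20 and of 262 and 1032 in their TGF-β groups. For F2RL1 they were HSPA13 (0.99), CDH2, the gene of N-cadherin (0.99), and the kinase gene CDK14 (0.99), with CDH2 at 34.6 and 23.3 cpm at D1 and D20 and at 174 and 91.0 in their TGF-β groups. For EDNRA they were HEXIM1 (0.98), RCBTB2 (0.98) and ANTXR1, a collagen-binding receptor gene (0.98).

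Other receptors for airway contractile agonists ranged from 0 counts to a highest condition mean of 92.3 cpm, that of F2RL2, named here after its values were seen. Of 33 listed, 29 had a count and 6 passed the filter. In D1+ TGF-β vs D1 0 rose and 2 fell (13.4% of all genes called). In D20+ TGF-β vs D20 1 rose and 2 fell (27.5% of all genes called). The median log2 fold change of the list was −0.34 at D1 and −0.12 at D20. CHRM3, the muscarinic receptor that contracts airway muscle, had between 1 and 3 counts over the 3 flasks of any condition, and both cysteinyl leukotriene receptor genes had 0. CHRM2, the Gi-coupled muscarinic receptor gene, had 12.6 ± 1.95 cpm at D1 and 50.0 ± 2.88 at D20, and with TGF-β it had 7.57 ± 2.07 and 7.65 ± 1.07 (SD, n = 3). It fell by 2.71 ± 0.16 on the log2 scale in D20+ TGF-β vs D20 (edgeR, adjusted p = 3.59e-08) and by 0.74 at D1 (adjusted p = 0.00627, lost in 9 of 23 alternatives). CHRM2 passed the filter only through its flasks without TGF-β. The sphingosine-1-phosphate receptor gene S1PR3 fell by 1.12 at D20 (adjusted p = 0.00201, and 0.0111 without replicate 3 of D20). PTGFR, the prostaglandin F receptor gene, rose by 0.91 at D20 (adjusted p = 0.00123), and LPAR3 fell by 1.03 at D1 (adjusted p = 0.00319, lost in 3 of 23 alternatives, and by 0.65 without replicate 2 of D1).

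EDNRB and AGTR1 were under the filter and were chosen after their values were seen. EDNRB, the endothelin B receptor gene, had 1.18, 16.7 and 1.26 cpm at D1 and 0.349, 0.558 and 0.700 with TGF-β, and at D20 it had 9.23, 6.33 and 5.89 and with TGF-β 38.3, 36.0 and 2.72. Its extreme flasks in D1 and D20+ TGF-β were again the libraries that stood apart. In the edgeR fit without the filter EDNRB was called between the TGF-β groups of the 2 days (5.51 ± 0.89 log2, adjusted p = 2.24e-05), and not with TGF-β at D1 (−3.64, adjusted p = 0.0143) or D20 (1.90, adjusted p = 0.0162). Without replicate 3 of D20+ TGF-β both were called, with −3.66 (adjusted p = 3.41e-08) and 2.42 (adjusted p = 2.45e-10). Over its 21 alternatives, however, the D1 difference ran from −4.11 to −1.15 (adjusted p up to 0.547). The D20 difference ran from 1.35 to 2.42 (adjusted p up to 0.290). The angiotensin receptor gene AGTR1 had 13.7, 17.7 and 17.3 cpm at D20 and 2.63, 1.92 and 1.03 at D20+ TGF-β, and it fell by 3.04 on the log2 scale (adjusted p = 2.39e-10), while at D1 it differed by −0.56 (adjusted p = 0.324).

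On the bronchodilator side, of 21 genes of relaxant receptors, their partners and a ligand, 6 passed the filter. Of these 1 rose and 3 fell at D1 (13.4% of all genes called), and 0 rose and 3 fell at D20 (27.5%). The median log2 fold changes were −0.46 and −0.47. PTGER2, a Gs-coupled prostaglandin E receptor gene, fell by 1.45 at D20 (adjusted p = 7.05e-06). The adenosine receptor gene ADORA2B fell by 0.86 at D1 (adjusted p = 1.51e-04) and by 0.93 at D20 (adjusted p = 3.52e-05), as did ADM, the gene of the dilator peptide adrenomedullin, by 0.77 (adjusted p = 2.33e-05) and 1.16 (adjusted p = 1.65e-07). PTGER4, which also couples to Gs, rose by 1.38 at D1 (adjusted p = 0.00216, and 0.0192 without replicate 2 of D1+ TGF-β). It passed the filter mainly through its TGF-β flasks.

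**Figure D4:**
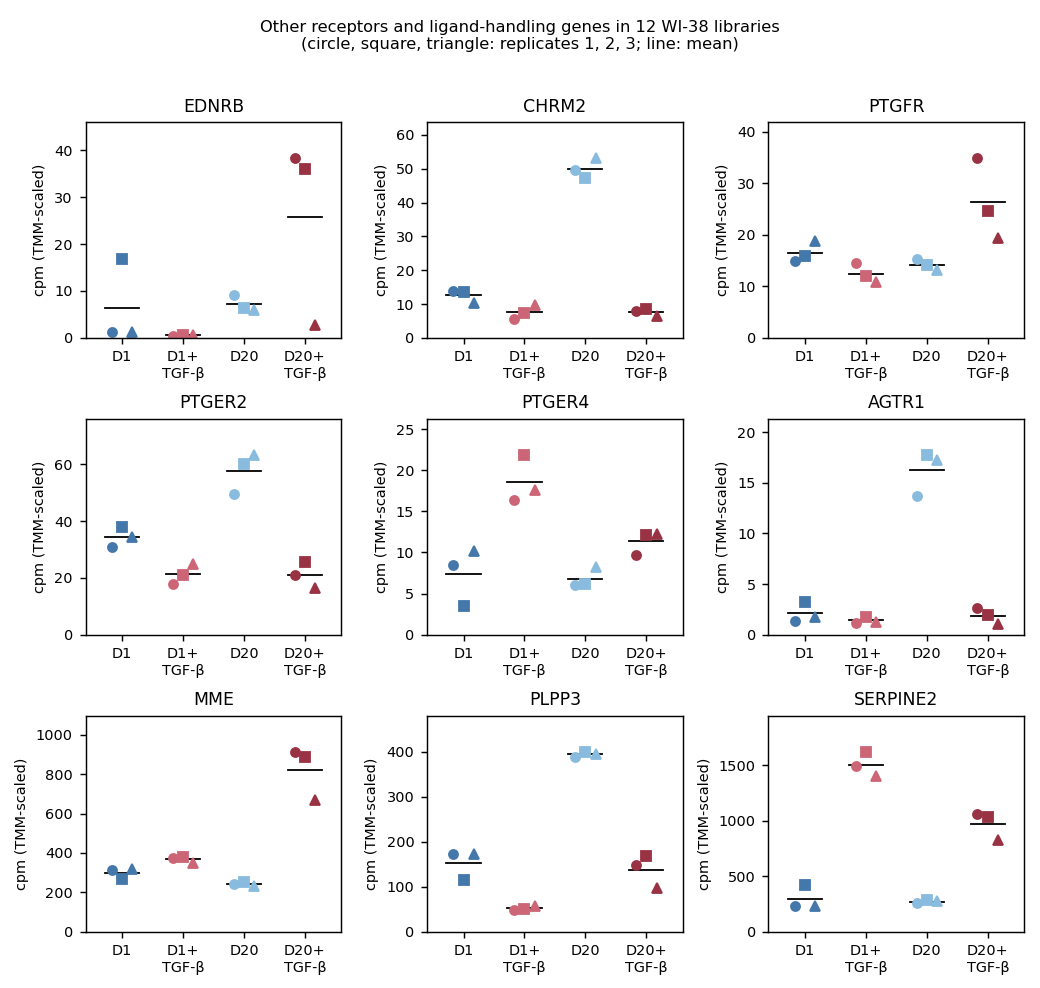
Levels in cpm (y axes, linear from 0) of 6 other receptor genes and of 3 genes that break down or inhibit agonists of the 9, in the 12 libraries by condition. Symbols are replicates 1, 2 and 3 and lines are means. CHRM2, PTGER2 and AGTR1 are highest in D20 and MME in D20+ TGF-β, and EDNRB differs widely between flasks of 1 condition.

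Genes that make or break down the agonists moved in both directions. Of 31 listed, 15 were tested, with 1 up and 4 down at D1 (13.4% of all genes called). At D20 2 were up and 7 down (27.5% of all genes called). The median log2 fold changes were −0.052 and −0.36. MME, the gene of neprilysin, which degrades endothelin-1 and bradykinin, had 299 ± 27.4 cpm at D1 and 242 ± 11.5 at D20, and with TGF-β it had 367 ± 17.3 and 823 ± 132 (SD, n = 3). It rose by 1.77 ± 0.11 on the log2 scale at D20 (edgeR, adjusted p = 8.51e-08). SERPINE2, whose product inhibits thrombin, rose by 2.36 at D1 (adjusted p = 2.27e-06) and by 1.84 at D20 (adjusted p = 6.86e-06). PLPP3, a phosphatase gene for lysophosphatidic acid, fell by 1.56 at D1 (adjusted p = 5.06e-05) and by 1.52 at D20 (adjusted p = 1.96e-05), the same direction as LPAR1. CPM, the gene of carboxypeptidase M, which turns bradykinin into the B1 receptor ligand, fell by 1.08 at D1 (adjusted p = 0.00768, lost in 11 of 23 alternatives). F3, the tissue factor gene, chosen after its values were seen, fell by 1.49 at D20 (adjusted p = 8.35e-06).

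Behind the receptors, 37 of 41 genes of G proteins, phospholipase C, calcium and myosin phosphorylation were tested. At D1 2 were up and 6 down (13.4% of all genes called), and at D20 3 up and 13 down (27.5%). The median log2 fold changes were −0.050 and −0.19. ITPR3, an inositol trisphosphate receptor gene, was higher by 1.84 with TGF-β at D20 (edgeR, adjusted p = 6.20e-07). Its means were 99.3 and 30.7 cpm at D1 and D20, and 116 and 109 in their TGF-β groups. The D20 flasks without TGF-β were thus the low ones. PLCB1 fell by 1.47 at D20 (adjusted p = 1.44e-05) and RHOB by 1.42 (adjusted p = 1.70e-07). At D1 PLCB4 rose by 0.88 (adjusted p = 4.12e-04), and GNAI1 and PLCB1 fell by 0.89 (adjusted p = 4.19e-04) and 0.87 (adjusted p = 0.00221), the latter call being lost without replicate 1 or 2 of D1+ TGF-β (adjusted p = 0.0135 and 0.0139). Of 19 genes of RGS proteins, receptor kinases and arrestins, 12 were tested, with 0 up and 3 down at D1 (13.4% of all genes called). At D20 2 were up and 1 down (27.5% of all genes called). The median log2 fold changes were −0.14 and −0.11. RGS5, a brake on Gq signals, rose by 1.88 at D20 (adjusted p = 0.00189, lost in 5 of 23 alternatives), with 87.7 and 90.5 cpm in replicates 1 and 2 of D20+ TGF-β and 19.3 in replicate 3. RGS17 fell by 0.78 at D1 (adjusted p = 0.00213, and 0.0110 and 0.0185 without replicate 1 or 2 of D1+ TGF-β) and rose by 0.77 at D20 (adjusted p = 7.39e-04), and the arrestin gene ARRB1 fell by 0.61 at D20 (adjusted p = 4.26e-04). At D1 the receptor kinase gene GRK5 fell by 1.00 (adjusted p = 0.00525, lost in 6 of 23 alternatives) and RGS12 by 0.45 (adjusted p = 0.00852, lost in 15).

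In the cAMP pathway, on which relaxant receptors act, 17 of 29 genes were tested. At D1 0 were up and 4 down (13.4% of all genes called), and at D20 1 up and 6 down (27.5%). The median log2 fold changes were −0.17 and −0.17. PDE5A, a phosphodiesterase gene specific to cGMP, was at 1268 ± 115 cpm at D1 and 3309 ± 54.7 at D20, with TGF-β at 586 ± 21.8 and 839.6 ± 123 (SD, n = 3), and it fell by 1.11 at D1 (edgeR, adjusted p = 5.28e-06) and by 1.98 at D20 (adjusted p = 1.27e-08). PDE4D, which degrades cAMP, rose by 1.86 at D20 (adjusted p = 2.93e-05). Its means were 6.81 and 6.02 cpm at D1 and D20, and 12.4 and 21.5 in their TGF-β groups. It passed the filter only through its TGF-β flasks. ADCY9, an adenylyl cyclase gene, fell by 0.84 at D20 (adjusted p = 0.00499, lost in 5 of 23 alternatives). At D1 PRKAR2B fell by 1.13 (adjusted p = 0.00233, lost in 3, and by 0.72 without replicate 2 of D1) and ADCY6 by 0.40 (adjusted p = 0.00784, lost in 12).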

How the data were processed

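RNA was sequenced from 12 flasks of WI-38 cells. The authors prepared libraries with a directional kit, read each in paired ends on 4 lanes, used Trimmomatic on the reads and mapped to hg19. The authors deposited unnormalized counts for every gene in each lane, and log2 cpm by voom for the genes that passed their own filter. The program that counted reads and its use of strand are not given in the sources used here. Lanes were summed per library. Tests used R 4.3.3, edgeR 4.0.16 (TMM, quasi-likelihood, 1 mean per condition, Benjamini-Hochberg), and log2 cpm a prior count of 2. Gene coordinates are from GENCODE on GRCh37. There each of the 9 genes but EDN1 overlaps another gene, and BDKRB1, BDKRB2, EDNRA and HRH1 do so on the same strand. Reads of the overlapping genes are not known to be separated. The code was tested on simulated data. The genes, lists, motifs and rules were chosen with earlier results of these data known.

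Named by rule were the 9 genes, CHRM3 and ACTA2, the 3 called genes with the largest change per list and TGF-β comparison, and the 3 genes most like each of 3 receptors. Some further genes are not reported here. Alternatives were DESeq2 1.42.0, limma-voom (limma 3.58.1) on libraries or lanes, limma on the deposited log2 values, RLE or no composition factors, no filter, filterByExpr, only the libraries compared, thinned counts, replicate block and each library left out.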

Additional observations from a re-analysis of the deposited data

Results flagged for a closer look

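The TGF-β response differed between D20 and D1 for EDN1, as given above, and for the following genes named with it. Each value is the log2 response at D20 minus that at D1, by edgeR with its adjusted p. Among receptors it was −1.96 for CHRM2 (adjusted p = 1.03e-04) and 1.32 for PTGFR (adjusted p = 0.00328), and in the fit without the filter 5.54 for EDNRB (adjusted p = 0.00149) and −2.48 for AGTR1 (adjusted p = 1.76e-04). The EDNRB call was lost without replicate 2 of D1 (3.05, adjusted p = 0.0699), without replicate 2 of D1+ TGF-β (adjusted p = 0.0118), with filterByExpr (adjusted p = 0.0229) and by limma-voom on the libraries (3.94, adjusted p = 0.333). That of PTGFR was lost in 4 of 22 alternatives, without replicate 2 or 3 of D1+ TGF-β or of D20 (adjusted p up to 0.0131). For MME it was 1.47 (adjusted p = 4.25e-05), the response being 0.29 at D1 and 1.77 at D20. Among signalling genes it was 1.62 for ITPR3 (adjusted p = 1.34e-04), −0.79 for RHOB (adjusted p = 0.00166), −1.09 for PLCB4 (adjusted p = 0.00177), 1.55 for RGS17 (adjusted p = 2.40e-04) and −0.87 for PDE5A (adjusted p = 9.36e-04). Of the listed check genes, ACTA2 differed by −1.94 (adjusted p = 1.23e-04) and IGFBP3 by −1.57 (adjusted p = 0.00194). EDN1 differed by −3.05 (adjusted p = 2.23e-08). For ITPR3 the D20 flasks without TGF-β lay below all other flasks, and for AGTR1 they lay above all others. The genes were named for their responses, so their number says nothing of how common such differences are, and the causes were not tested.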

How the results depend on the processing

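Of 45 differences of the 9 genes, 22 were called, and 19 of these were called in each of their alternatives. The exceptions were BDKRB2 at D1 and LPAR1 and F2R with TGF-β at D20, whose calls were ended by leaving out any of 8, 9 and 10 single libraries, besides other settings. Leaving out each library in turn gave 3 to 5 called genes in D1+ TGF-β vs D1, 2 to 4 in D20+ TGF-β vs D20, 5 to 7 between the TGF-β groups, 6 in D20 vs D1 and 0 to 2 for the difference of responses, the 2 being BDKRB1 and BDKRB2 without replicate 3 of D20+ TGF-β. Without composition factors 2 genes were called in D20+ TGF-β vs D20, and with lanes entered as samples, which repeat 1 RNA, 8 between the TGF-β groups and 4 for the difference of responses. Without the filter, and with filterByExpr, the difference of responses was called for 1 gene, EDN1, which these fits include. Some small differences that were not called changed sign. For F2R at D1 it was −0.058 without composition factors, −0.013 without the filter and −0.015 to 0.022 with 1 library left out. For OXTR in D20 vs D1 it was 0.12 by limma-voom on libraries, 0.16 on lanes, 0.094 on the deposited values, 7.26e-04 with thinned counts, 0.025 with the replicate block and −0.37 to 0.25 with 1 library left out, and for OXTR with TGF-β at D20 it was −0.19 to 0.51. For EDN1 in D20 vs D1 it was −0.22 to 0.37 with 1 library left out. Same-numbered flasks did not deviate together (r of −0.22 to 0.026), so no pairing by number was seen. Deviations from means of 3 flasks cannot exclude one. The replicate block left 3 genes called in D20+ TGF-β vs D20, without LPAR1, and changed no other call of the 9 genes. No composition factor moved the median difference of responses of all genes by 0.11. Of 54 calls of other named genes that were put to the alternatives, 39 held in each and 0 changed sign. The calls of TEK, of F3 and of EDNRB between the TGF-β groups were not among them. The causes were not tested.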
